A study of Mus musculus with 2 samples.

Results

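Purkinje cell genes were followed as 10 named members, Pcp2, Pcp4, Calb1, Itpr1, Slc1a6, Rora, Lhx1, Lhx5, Car8 and Ppp1r17, out of 45578 genes in a ribosome profiling table of the neonatal mouse brain. Members were matched by the gene symbol in each transcript name, and all 10 were found, with 26 annotated transcripts between them. The list was selected on the measured difference of Pcp2 counts between the replicates, which was already known, so the replicate comparison describes the members and supports nothing about them. Ribosome profiling sequences the short mRNA stretches that translating ribosomes shield from nuclease, here called footprints, of 25 to 35 nucleotides and taken from polysomes.

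Both samples came from brains of control mice at postnatal day 5, and they formed 1 group of biological replicates 1 and 2 (n = 2). The animals were heterozygous Taiwanese mice on a congenic FVB background with the genotype Smn+/-; SMN2tg/0. Both therefore lacked 1 functional copy of Smn and carried the human SMN2 transgene, and the table held no wild-type or disease group to compare them with. Replicate 1 held 1866831 footprints and replicate 2 held 5261878, a ratio of 2.82. Levels are CPM values, that is counts scaled to the library total, so a count of 3, taken as the floor, equals 1.61 CPM in replicate 1 and 0.570 CPM in replicate 2. The samples were labelled as brain with no region named, and Purkinje cells are a small part of the brain. The labels do not say whether the same parts of the brain were taken for both libraries. Fewer cells of a type cannot be told apart from less RNA per cell.

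Purkinje cells are the large GABAergic output neurons of the cerebellar cortex. Signalling through Gq and phospholipase C releases calcium from their endoplasmic reticulum by way of the inositol trisphosphate receptor Itpr1. In the newborn mouse these cells are still aligning into a single layer and growing their dendrites while the granule cells around them multiply. Pcp2 is used as a marker of Purkinje cells and is otherwise known from retinal bipolar cells. Calb1, Pcp4, Itpr1, Rora, Lhx1 and Lhx5 are also made by neurons of the forebrain, thalamus or brainstem.

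All members had footprints in both libraries, and together they took 0.0410% ± 0.00523 of all footprints (SD, n = 2). In replicate 1 their share was 0.0373% (95% interval by the Clopper-Pearson method, 0.0346 to 0.0402), and replicate 2 gave 0.0447% (0.0429 to 0.0466). Pcp2 alone made up 3.44% of the members' footprints in replicate 1 and 10.1% in replicate 2. Without Pcp2 the shares of the library were 0.0361% and 0.0402%. These intervals, and those below, cover counting error only, since PCR copies are not independent molecules.

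Pcp2 (ENSMUSG00000004630), a small protein that binds inhibitory G protein alpha subunits, was the member that differed most. Replicate 1 held 24 Pcp2 footprints and replicate 2 held 238. This gave 12.9 CPM (8.24 to 19.1) for the first library and 45.2 CPM (39.7 to 51.4) for the second, a ratio of 3.52 on library totals. Replicate 2 was the high library, and the intervals did not overlap. The log2 ratio of replicate 2 over replicate 1 was 1.65, after TMM scaling (trimmed mean of M values) and with a prior of 0.5 CPM, and the exact binomial interval without a prior ran from 1.08 to 2.36. Pcp2 ranked 2 among the 8060 genes that averaged 100 or more counts when ordered by this ratio. That rank is part of why the gene was chosen.

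The bases before the outermost RefSeq start of Pcp2 are shown together with those before Pcp4, because these are the members called between the libraries, in opposite directions, as described below. Each sequence is the 250 bases upstream of the start in RefSeq on GRCm38.p6, written 5′ to 3′ on the gene's strand. Capitals mark the hexamer AGGTCA, the core recognized by nuclear receptors such as the product of Rora, or its reverse complement TGACCT.
Pcp2, chr8:3625548-3625797, minus strand: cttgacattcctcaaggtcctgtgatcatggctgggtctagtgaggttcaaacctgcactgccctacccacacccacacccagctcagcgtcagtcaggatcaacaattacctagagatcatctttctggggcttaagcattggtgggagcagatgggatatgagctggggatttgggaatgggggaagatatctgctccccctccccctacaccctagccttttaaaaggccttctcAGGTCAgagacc
Pcp4, chr16:96467356-96467605, plus strand: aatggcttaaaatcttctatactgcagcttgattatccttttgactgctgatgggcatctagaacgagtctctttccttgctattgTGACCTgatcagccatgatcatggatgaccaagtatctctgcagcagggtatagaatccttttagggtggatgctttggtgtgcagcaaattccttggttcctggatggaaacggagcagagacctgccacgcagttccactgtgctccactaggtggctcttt
Pcp2 held the hexamer in the sense direction, with its first base 12 bases before the start, and Pcp4 held the reverse complement 164 bases before the start. RefSeq windows matched 5 members, Pcp2, Pcp4, Rora, Slc1a6 and Lhx1, with 8 windows in all. The letters were present in either direction in 4 of these 8 windows, 3 of them from Pcp2, whose 4 windows overlap. They were not in the windows of Rora, Slc1a6 and Lhx1. Of all 32817 windows of this length, 14.0% held them, so a match is common and is no more than a description.

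Pcp2 had 7 annotated transcripts, 4 protein coding, 2 with a retained intron and 1 processed transcript without a coding sequence. Pcp2-001 has the longest coding sequence, at 411 nucleotides or 137 codons. Pcp2-005 has 363 nucleotides. Pcp2-004 and Pcp2-006 have 300 nucleotides each and differ in the length of their 5′ untranslated region, at 133 and 162 nucleotides. The spread of footprints over these models was close to even in replicate 2, where each held between 30 and 38 of the 238. Replicate 1, with 24 footprints in all, had between 1 and 7 on each.

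Pcp2-005 had the highest mean share of the gene's footprints, at 29.2% in replicate 1 (95% interval 12.6 to 51.1; 7 footprints) and 16.0% in replicate 2 (11.6 to 21.3; 38 footprints). Pcp2-006 had 4 and 38 footprints, Pcp2-001 had 4 and 32, and Pcp2-004 had 3 and 30. On the processed transcript Pcp2-007 there were 3 and 31. The retained-intron models had the largest contrast, with 2 and 32 footprints on Pcp2-002 and 1 and 37 on Pcp2-003. All 7 had a higher ratio of counts than the libraries as a whole, from 5.43 for Pcp2-005 to 37 for Pcp2-003, which rests on 1 footprint in replicate 1.

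**Figure D1:**
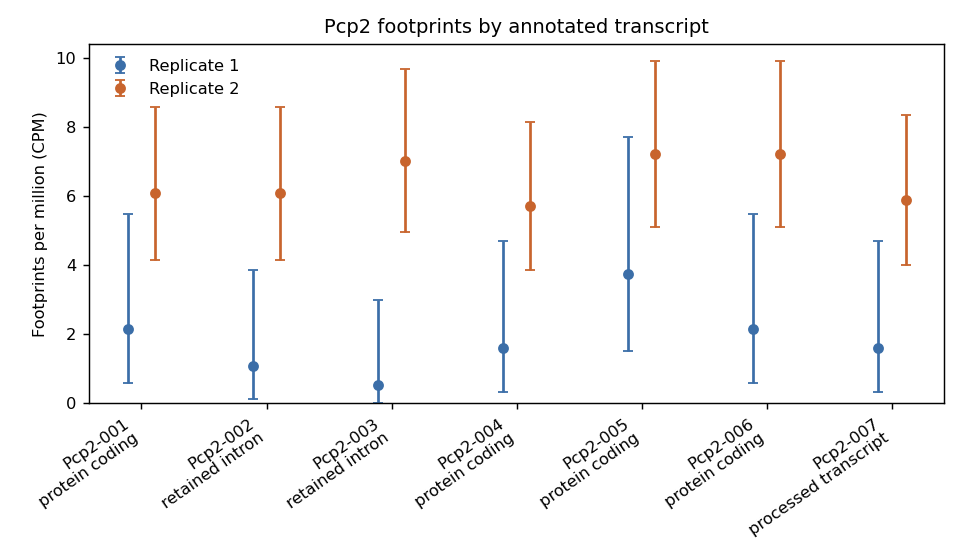
Level of each annotated Pcp2 transcript in CPM, with replicate 1 in blue and replicate 2 in orange; points are the values of single libraries and bars are 95% Clopper-Pearson intervals. Replicate 2 lies above replicate 1 at each of the 7 models, and the intervals are apart for the retained-intron models and overlap for the other 5.

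Coding models held 75.0% of Pcp2 footprints in replicate 1 (95% interval 53.3 to 90.2) and 58.0% in replicate 2 (51.4 to 64.3). Retained-intron models held 12.5% (2.66 to 32.4) and 29.0% (23.3 to 35.2), so the intervals of both classes overlapped between the libraries. Over whole libraries, retained-intron transcripts took 9.36% ± 0.387 (SD, n = 2). Among 5585 tested genes with both classes annotated, the median share on retained introns was 15.6%, and Pcp2, at 25.3% of its summed CPM, lay at percentile 70.3. The retained-intron models are 1606 and 1447 nucleotides long against 470 to 524 for the coding ones. In replicate 2 they held 1.99 and 2.56 footprints per 100 nucleotides, where the coding models held 6.06 to 8.09.

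These counts do not assign a footprint to an isoform. Transcripts of a gene share exons, and the handling of fragments that match several of them is not given in the sources used here. In 49 pairs of coding transcripts of a gene with identical lengths, the squared difference of both counts divided by their total averaged 1.03. Counting every shared fragment on both transcripts would give 0. A value of 1 is what an even random split of shared fragments gives, and also what independent counts with equal expectations give, so the value does not tell these apart. In RefSeq the span of Pet100, a mitochondrial assembly factor, overlaps that of Pcp2 on chromosome 8. Pet100 had 79 footprints in replicate 1 and 149 in replicate 2, a smaller ratio than that of the library totals, while the ratio of Pcp2 was larger. The use of strand in counting is not stated, and the part of the overlap in the Pcp2 count was not tested.

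Pcp4 (ENSMUSG00000090223), a short peptide that modulates calmodulin, was the member with the densest footprints. Replicate 1 held 153 of its footprints and replicate 2 held 319, all on its single annotated transcript with a coding sequence of 189 nucleotides. Its level was 82.0 CPM (95% interval 69.5 to 96.0) and 60.6 CPM (54.2 to 67.7). Replicate 2 was the low library and the intervals did not overlap, the opposite of Pcp2. The log2 ratio was -0.56 (interval -0.84 to -0.27).

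Among the calcium-handling members, Calb1 (ENSMUSG00000028222), the calcium buffer calbindin, had the most footprints. The libraries held 143 and 558 of its footprints, or 76.6 CPM (64.6 to 90.2) and 106 CPM (97.4 to 115). Its log2 ratio was 0.34 (0.08 to 0.62), with replicate 2 high and the intervals apart. Calb1 too had many footprints on retained-intron models, 38.5% in replicate 1 and 33.0% in replicate 2, at percentile 84.4 of the genes with both classes. Its coding transcript alone held 88 and 374 footprints.

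Itpr1 (ENSMUSG00000030102), the calcium release channel, had 117 and 356 footprints on a coding sequence of 8250 nucleotides. Its level was 62.7 CPM (51.8 to 75.1) and 67.7 CPM (60.8 to 75.1), and the intervals overlapped. The log2 ratio was -0.02 (-0.32 to 0.30), and with library totals it was 0.11. Car8 (ENSMUSG00000041261), a carbonic anhydrase relative without catalytic activity that binds Itpr1, had 61 and 232 footprints. It stood at 32.7 CPM (25.0 to 42.0) and 44.1 CPM (38.6 to 50.1), with a log2 ratio of 0.30 (-0.11 to 0.74). Channel and partner thus both had overlapping intervals between the libraries.

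Slc1a6 (ENSMUSG00000005357), the glutamate transporter of Purkinje dendrites, had 80 and 252 footprints. It stood at 42.9 CPM (34.0 to 53.3) and 47.9 CPM (42.2 to 54.2), and its log2 ratio was 0.03 (-0.33 to 0.42). Slc1a6 is, like Pcp2, largely a Purkinje cell gene in the brain. Its intervals overlapped between the libraries and those of Pcp2 did not, a contrast that was not tested. Ppp1r17 (ENSMUSG00000002930), a phosphatase inhibitor that is phosphorylated by cGMP-dependent kinase, had 2 and 8 footprints. These gave 1.07 CPM (0.130 to 3.87) and 1.52 CPM (0.656 to 2.996). At this depth its log2 ratio lay anywhere between -1.95 and 3.65, so no difference was detectable.

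The transcription factors among the members had overlapping intervals between the libraries. Rora (ENSMUSG00000032238), the nuclear receptor lost in the staggerer mouse, had 58 footprints in replicate 1 and 190 in replicate 2, or 31.1 CPM (23.6 to 40.2) and 36.1 CPM (31.2 to 41.6). Its coding transcripts held 79.3% and 86.3% of these footprints. Lhx1 (ENSMUSG00000018698) and Lhx5 (ENSMUSG00000029595) encode related LIM homeodomain factors that act together in Purkinje cell differentiation. Lhx1 had 38 and 132 footprints, or 20.4 CPM (14.4 to 27.9) and 25.1 CPM (21.0 to 29.7). Lhx5 had 21 and 69, or 11.2 CPM (6.96 to 17.2) and 13.1 CPM (10.2 to 16.6). The log2 ratios were 0.09 for Rora (-0.34 to 0.54), 0.17 for Lhx1 (-0.35 to 0.74) and 0.09 for Lhx5 (-0.63 to 0.87).

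**Figure D2:**
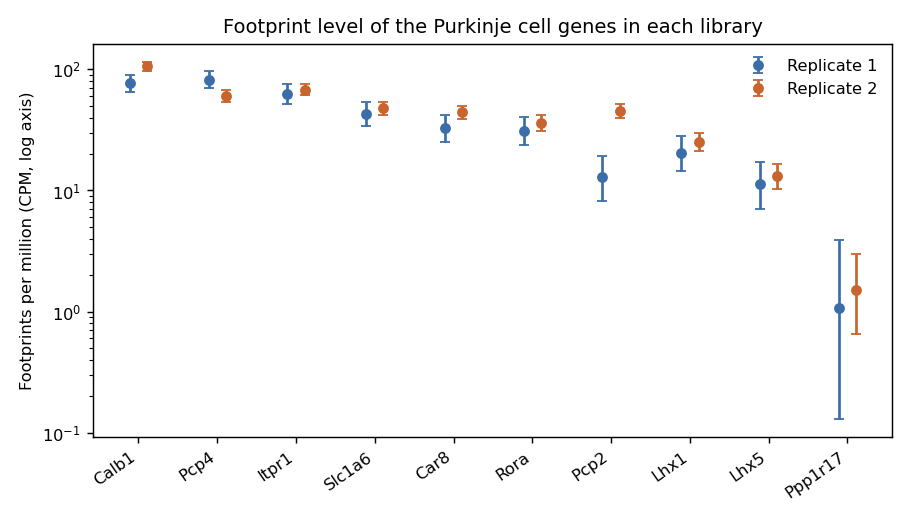
Footprint level of each member in CPM on a log axis, ordered by mean level, with replicate 1 in blue and replicate 2 in orange; bars are 95% Clopper-Pearson intervals. Replicate 2 is far above replicate 1 for Pcp2 (45.2 against 12.9 CPM), below it for Pcp4 (60.6 against 82.0 CPM), and the intervals of the libraries overlap for Itpr1, Slc1a6, Car8, Rora, Lhx1, Lhx5 and Ppp1r17.

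The order of the members' levels was taken per kilobase of the longest annotated coding sequence, since CPM values are not scaled to length. On this scale Pcp4 was highest, at 377 ± 79.8 CPM per coding kilobase (SD, n = 2), which was percentile 97.3 of the 13317 coding genes that averaged 10 or more counts. Calb1 followed at 116 ± 26.5, Pcp2 at 70.7 ± 55.7 and Car8 at 43.8 ± 9.21. These values count footprints on all annotated transcripts, including models without a coding sequence. Coding models held a mean of 66.5% of Pcp2 and 64.3% of Calb1 footprints, 82.8% for Rora and 90.0% for Lhx1. The replicate ranges of Pcp2 overlapped those of both its neighbours in the order, Calb1 and Car8, since its own values were 31.3 in replicate 1 and 110 in replicate 2. Slc1a6 stood at 26.9 ± 2.11, close to the median of 23.5 for these coding genes.

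The lower part of the order held Rora at 21.4 ± 2.27, Lhx1 at 18.6 ± 2.74, Lhx5 at 10.1 ± 1.09 and Itpr1 at 7.90 ± 0.427 CPM per coding kilobase. Rora and Lhx1 did not differ beyond their replicate ranges. Itpr1, whose coding sequence is the longest of the list, lay at percentile 22.6 per coding kilobase. Ppp1r17 was last at 2.70 ± 0.661, percentile 5.98. The order depended on the length used. Per kilobase of the longest transcript it ran Pcp4 at 111, Slc1a6 at 21.7, Calb1 at 21.6, Pcp2 at 18.1 and Car8 at 9.96 CPM. Itpr1 at 6.62, Lhx1 at 5.91, Lhx5 at 4.53, Rora at 3.09 and Ppp1r17 at 0.746 followed. The share of footprints in untranslated regions was not measured.

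The exact binomial test of replicate 2 against replicate 1, with Benjamini-Hochberg adjustment across all 16427 genes that averaged 10 or more counts, called 2 of the 9 members that passed this filter. Pcp2 was called as higher and Pcp4 as lower in replicate 2. Under edgeR's exact test, which allows for a common dispersion, 0 members were called, 1 having an unadjusted p under 0.05, and with the highest transcript of each gene alone the Pcp2 log2 ratio was 0.85 and Pcp2 was not called. With the binomial test 17.4% of all genes tested were called, 5.95% as higher and 11.5% as lower. Calls were more frequent among well-counted genes. With the filter raised to a mean count of 100, 2742 of 8060 genes were called, and 3 of 7 members (Pcp2, Calb1 and Pcp4). With library totals in place of TMM, 11.5% of genes were higher and 7.47% lower, and 2 members were higher (Pcp2 and Calb1) and 1 lower (Pcp4). Intervals of the CPM did not overlap for 3 members, Pcp2, Pcp4 and Calb1, as for 17.4% of all tested genes. The test compares a pair of libraries of the same group and covers counting noise alone, so a call says nothing about a condition.

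The median log2 ratio of the 9 tested members was 0.09, beside 0.01 for all tested genes. Without Pcp2 the members lay between -0.56 and 0.34. The central 95% of all tested genes ran from -0.84 to 1.10, and Pcp2 was the member outside it. Pcp4 is densely covered, and the 10% of tested genes with the most footprints per nucleotide had a median log2 ratio of -0.25. The genes in the same density class as Pcp2 had a median of 0.01. The part of density in these differences was not tested.

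**Figure D3:**
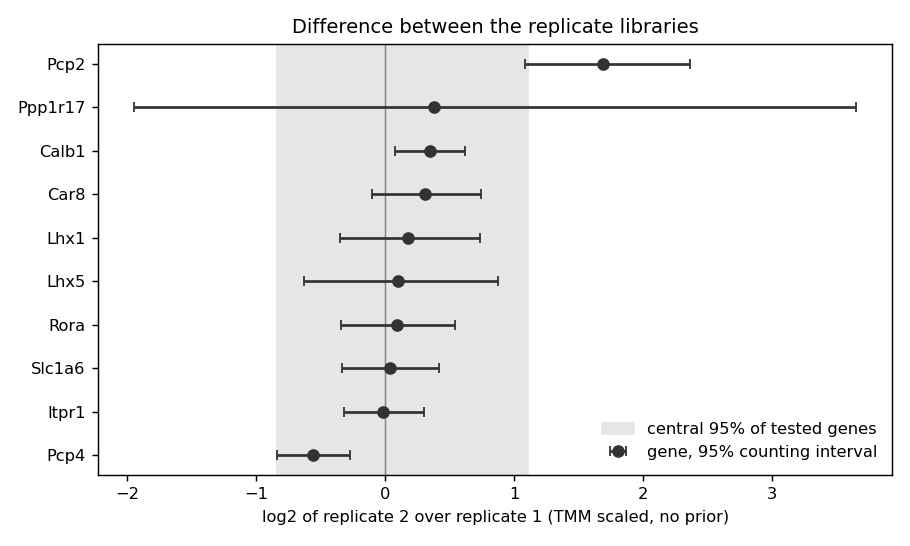
Log2 ratio of replicate 2 over replicate 1 for each member after TMM scaling and without a prior; bars are exact binomial 95% intervals, and the grey band holds the central 95% of all tested genes (-0.84 to 1.10). Pcp2 is the member to the right of the band, Pcp4 and Calb1 have intervals that leave out 0, and the interval of Ppp1r17 (2 and 8 footprints) spans the band.

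A further 27 genes with a known role in Purkinje cells were listed to see whether others moved with Pcp2. Of these, all 27 were tested, 1 was called as higher and 8 as lower in replicate 2, with a median log2 ratio of -0.25. With library totals the numbers were 2 and 7 and the median was -0.13. Of all tested genes 5.95% were called as higher and 11.5% as lower, or 11.5% and 7.47% with library totals. The gene called as higher was Homer3, a postsynaptic scaffold protein that binds Itpr1, with 20 and 116 footprints, 10.7 CPM (6.54 to 16.5) against 22.05 CPM (18.2 to 26.4). En1, a midbrain and cerebellar patterning factor, had the lowest log2 ratio at -0.76, with 26 and 46 footprints, and was not called. Dner, a Notch ligand of the Purkinje dendrite that other neurons also make, had the highest CPM of the list, a value not scaled to length, at 672 ± 143 and was lower in replicate 2. Most genes of this list, Gad1 and Gad2 among them, are also made by other neurons of the brain.

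Calcium release in Purkinje cells was followed with 21 genes, of which Pcp4, Calb1, Itpr1 and Car8 are members and several stood in the preceding list. Of the 17 that are not members, 1 was called as higher (Homer3) and 5 as lower in replicate 2, beside 5.95% and 11.5% of all tested genes. Their median log2 ratio was -0.18, and with library totals 2 were higher, 3 lower and the median was -0.05. Atp2a2, the calcium pump of the endoplasmic reticulum, had the highest CPM, not scaled to length, at 828 ± 24.4. The lowest log2 ratio belonged to Ryr1, a ryanodine receptor, at -0.96 with 16 and 24 footprints, and it was not called. Beside Pcp2, the calls in the same direction in this pathway were thus Homer3 and, with library totals, Calb1 and Plcb4.

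Markers of cells and regions around the Purkinje layer differed between the libraries beside Pcp2. Hindbrain Hox genes, which mark tissue behind the cerebellum, held 15 footprints in the first library and 389 in the second over 11 genes, or 8.04 CPM (4.50 to 13.3) against 73.9 CPM (66.8 to 81.7). Hoxa2, Hoxa5, Hoxb2, Hoxb4 and Hoxb5 had no footprint in replicate 1. Hoxa5 reached 16.9 CPM in replicate 2, at least 10.5-fold higher than the floor of 3 counts in replicate 1. Of the 6 Hox genes tested 4 were called as higher, beside 5.95% of all tested genes, but they passed the filter largely through replicate 2. Hoxc4 had the highest mean CPM, not scaled to length, with 8 and 82 footprints, and Hoxd3, with 2 and 21, had the lowest log2 ratio of those tested.

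Cerebellar granule lineage genes summed to 882 CPM (840 to 925) in the first library and 1232 CPM (1202 to 1262) in the second. Of the 11 tested, 5 were called as higher and 0 as lower, and with library totals 6 and 0. Of all tested genes 5.95% were higher and 11.5% lower, or 11.5% and 7.47% with library totals. In either direction, 2742 of the 8060 genes with a mean count of 100 or more were called. Reln, secreted by granule cells and read by Purkinje cells as they settle, had the most footprints, 510 and 2271, and 273 CPM (250 to 298) against 432 CPM (414 to 450). Atoh1, the factor of granule cell precursors, had 3 and 31 footprints and the highest log2 ratio at 1.49, without being called. Cbln1, which bridges parallel fibres to Purkinje cells, had the lowest at -0.10. The members without Pcp2 summed to 361 CPM (334 to 389) and 402 CPM (385 to 420), a ratio of 1.12, where the granule list had 1.40 and Pcp2 3.52. The difference between these ratios was not tested.

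Forebrain genes went the other way, from 1365 CPM (1312 to 1419) to 1015 CPM (988 to 1043). Of these 10 genes 7 were called as lower, or 4 with library totals, beside 11.5% and 7.47% of all tested genes. Well-counted genes were called more often, 2742 of 8060 in either direction at a mean count of 100 or more. Nrgn, a calmodulin-binding protein of forebrain neurons, had 606 and 806 footprints and the lowest log2 ratio at -1.21. Retinal genes were low: 12 genes summed to 22 and 101 footprints, 11.8 CPM (7.39 to 17.8) and 19.2 CPM (15.6 to 23.3), of which Isl1, also made elsewhere in the brain, gave 15 and 59. Opn1mw, Rcvrn and Pde6b had no footprint in either library. The bipolar cell gene Grm6 had 2 and 3 footprints while Pcp2 had 24 and 238. The part of the Hox, granule and forebrain differences in the Pcp2 result was not tested.

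**Figure D4:**
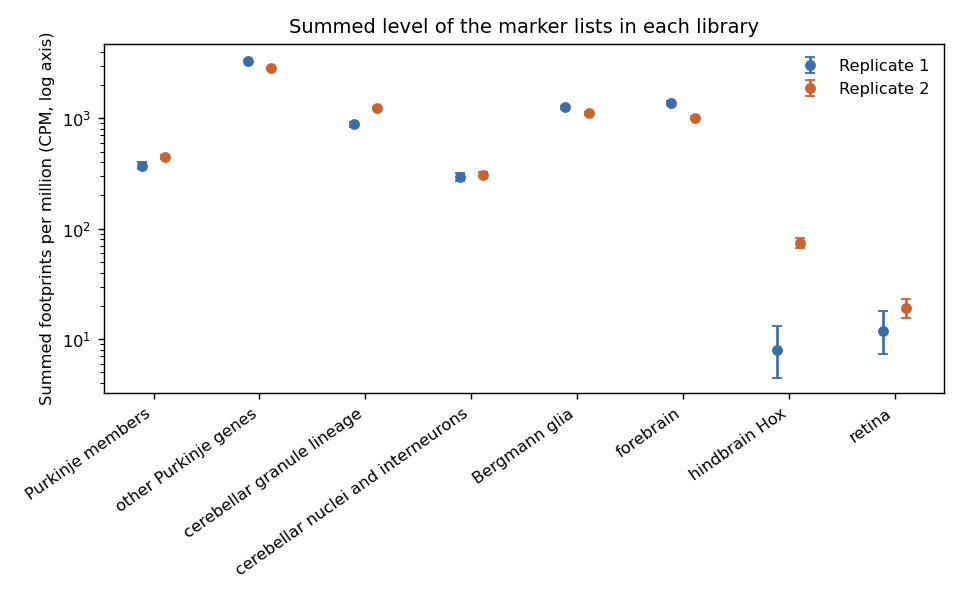
Summed level of each marker list in CPM on a log axis, with replicate 1 in blue and replicate 2 in orange; bars are 95% Clopper-Pearson intervals of the summed count. The hindbrain Hox list is farthest apart (8.04 against 73.9 CPM), the granule lineage list is higher and the forebrain list lower in replicate 2, and the Purkinje members sum to 373 and 447 CPM.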

How the data were processed

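The authors deposited whole-number counts of footprints for 109463 transcripts of 45578 genes, with no normalization. Per the submitters' processing notes, Trimmomatic 0.36, Bowtie2 2.2.6, SAMtools and GRCm38.p4 were used; the annotation, strand setting and handling of shared fragments are not given in the sources used here. Counts were summed per gene and scaled to library totals as CPM. Log2 ratios used TMM factors from edgeR 4.0.16 (0.957 and 1.04, a shift of -0.13) and a prior of 0.5 CPM. With 1 group there is no contrast for a quasi-likelihood fit, so a two-sided exact binomial test was used (scipy 1.17.1, adjusted p under 0.05). It was tested on simulated counts with counting noise alone, which is what the test assumes. That run therefore says nothing about scatter beyond counting noise in the real libraries. Members and lists were chosen with earlier results of these data known. Named genes were all members and, per list, the genes with the highest level, the highest and lowest log2 ratio at a mean count of at least 10, and those at 0 in both libraries (1 gene that this rule names is not reported here); Hox genes at 0 in replicate 1, Plcb4, Pet100, Grm6, Gad1 and Gad2 were named after their values were seen. Likeness of other genes to Pcp2 was not computed, since 2 libraries give 1 ratio per gene. Alternatives were DESeq2 1.42.0 size factors, library totals, other priors and filters, coding or highest transcripts alone, edgeR's exact test, and each replicate left out. Levels were also taken per kilobase of the longest transcript.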

Additional observations from a re-analysis of the deposited data

How the results depend on the processing

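No paired analysis was possible because the samples form 1 group. With edgeR's exact test and the common dispersion, 0 members were called, 1 at an unadjusted p under 0.05, and 11 genes in all; its dispersion comes from the same pair of libraries. The exact binomial test called 2, with 3 at an unadjusted p under 0.05, and 2 or 3 in every other setting tried. With the highest transcript of each gene alone, the Pcp2 log2 ratio was 0.85 and Pcp2 was not called, while Calb1 was called; 1444 genes were called in all against 2861. With coding transcripts alone Pcp2 stayed called at 1.31. The summed share of the members was 0.0648% with highest transcripts and 0.0476% with coding transcripts, each over a smaller total, and 0.0373% to 0.0447% with a replicate left out. Over coding transcripts alone the mean shares of Pcp2 footprints were 22.7% for Pcp2-001, 19.2% for Pcp2-004, 33.2% for Pcp2-005 and 24.9% for Pcp2-006, by construction. Replicate 1, with 24 Pcp2 footprints, limits what can be said of its isoforms.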

Other observations

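Other cells of the cerebellum gave mixed values. Of 6 genes listed for Bergmann glia, the astrocytes whose fibres run beside Purkinje dendrites, 1 was called as higher and 2 as lower in replicate 2. With library totals these counts were 2 and 2. Of all tested genes 5.95% were higher and 11.5% lower, or 11.5% and 7.47% with library totals. Slc1a3, a glial glutamate transporter, had the highest CPM, not scaled to length, at 549 in both libraries. Sept4, a septin of Bergmann glia and other cells, had 55 and 313 footprints and the highest log2 ratio at 0.88, and A2m, with 49 and 69, had the lowest at -1.10. Genes of cerebellar nuclei and interneurons summed to 295 CPM (95% interval 271 to 320) and 307 CPM (293 to 323), and Meis2 had the most footprints, at 156 ± 15.5 CPM (SD, n = 2). Pax2, a factor of young cerebellar inhibitory interneurons, had 8 and 72 footprints, 4.29 CPM (1.85 to 8.44) against 13.7 CPM (10.7 to 17.2). It was called as higher. Lhx9, with 123 and 270, was called as lower, but not with library totals, where 0 genes of this list were lower, and its CPM intervals overlapped (54.8 to 78.6 against 45.4 to 57.8).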
